A study of Mus musculus with 30 samples.

Results

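The 32 genes described here encode 16 enzymes of the mevalonate and sterol branch, 10 enzymes of the fatty acid branch, 5 regulators of their transcription and the sterol carrier Stard4. They were listed by name as a module of lipid synthesis. All 32 were among the 18194 genes measured by a probe set with a single gene symbol, and a gene with several such probe sets was read from the brightest by its mean on the 30 arrays. All 32 also passed the filter on low signal that left 12674 tested genes.

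Cells make cholesterol from acetyl-CoA through mevalonate, squalene and lanosterol, and make fatty acids from the same precursor by chain synthesis, elongation and desaturation. Genes of both branches are known targets of the SREBP transcription factors. Their precursors are held in the endoplasmic reticulum by the INSIG proteins when sterols are plentiful, and are escorted to the Golgi by SCAP when sterols are scarce. Growing cells use the products of both branches to build membranes.

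The study compared fibroblasts with and without p53, and p53-restored fibroblasts after siRNA against lincRNA-p21, a noncoding RNA that p53 induces, or against hnRNP-K, a protein that binds RNA. All groups were mouse embryonic fibroblasts from E13.5 embryos of the strain C57BL/6 x 129SvJ, homozygous for a p53 allele that stays silent until Cre recombinase acts (p53 LSL/LSL). In the time course, cells were infected for 24 h with an adenovirus carrying Cre (AdenoCre), after which the allele can be expressed, or GFP (AdenoGFP). They were then kept in 500 nM doxorubicin, which damages DNA, with 1 array for each virus at 0, 1, 3, 6 and 9 h, and the 0 h arrays were untreated. The lincP21KD experiment gave AdenoCre for 24 h to all cells, then siRNA against lincRNA-p21 (siLincp21, 3 arrays), siRNA against p53 (siP53, 3 arrays) or a scrambled siRNA (siScramble, 2 arrays) for 24 h, then 100 nM doxorubicin for 13 h. The hnRNPKKD experiment followed the same schedule with siLincp21, siRNA against hnRNP-K (siHnrnpk), siP53 and a control siRNA (siControl), 3 arrays each. The viruses differ in Cre and GFP as well as in p53, and no cells had Cre without the silent allele. Every siRNA group, controls included, carried Cre and doxorubicin. The labels do not say that replicates were separate cultures, so p-values measure the spread between these arrays. The time course has no replicate at any time, so p-values between the viruses measure how the difference varied over the times.

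Values are the deposited log2 RMA signals, and differences are differences of log2 signal with standard errors (SE) from limma. A gene was called at a Benjamini-Hochberg adjusted p below 0.05 over all 12674 tested genes. Cdkn1a, a direct p53 target, differed by 3.85 ± 0.15 between AdenoCre and AdenoGFP cells, and by -2.07 ± 0.11 and -2.64 ± 0.18 between siP53 and control siRNA in the lincP21KD and hnRNPKKD experiments. Hnrnpk read 8.38, 8.34 and 9.94 with siHnrnpk, against 12.68, 12.03 and 12.47 with siControl, so replicate 3 of siHnrnpk kept more of the transcript (-3.51 ± 0.35). Transcripts of p53 and lincRNA-p21 were not analysed here, so how far siLincp21 reduced its target is not known from these values. All 11 fibroblast markers lay above the filter limit in every group. Several fibroblast markers were still called, in both directions. With AdenoCre Lum fell (-1.22 ± 0.21) and S100a4 rose (0.52 ± 0.08). With siHnrnpk Lum fell (-0.94 ± 0.12) and Postn rose (0.42 ± 0.11). In hnRNPKKD Pdgfrb rose with siP53 (1.75 ± 0.16) and siLincp21 (1.36 ± 0.16). Dcn fell there with siP53 (-0.28 ± 0.08), and S100a4 with siLincp21 (-0.90 ± 0.12). Other markers on the list were called as well. The part of this list in the lipid results was not tested. Of 6 adipocyte markers on the array, Adipoq, Cidec and Lep lay below the filter limit in every group. The hepatocyte markers Alb and Afp lay below it in every group, while 1 to 3 of the 5 listed lay above it. The endothelial markers Pecam1, Emcn and Tie1 also lay below it throughout, while 1 or 2 of the 6 listed lay above it. In these bulk samples, fewer cells of a type and less RNA per cell cannot be told apart.

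The promoters of 25 members were in the RefSeq table used here (GRCm38.p6), and the 250 bases before each gene start were searched on both strands for 3 motifs. These were TCACNCCAC, a core of the sterol regulatory element bound by SREBPs, CCAAT, the site of the factor NF-Y, and CACGTG, an E-box. A CCAAT was present in 13 of 13 sterol enzyme genes, 4 of 5 regulators and 3 of 7 fatty acid genes. That makes 20 of 25 members, against 40.4% of the 10232 tested genes with an entry and 33.8% of all 32851 promoters. The E-box was present in 6 of 25 members, against 9.73% of those genes and 6.02% of all promoters. TCACNCCAC was present in Hmgcs1 alone among the 25, against 1.25% of those genes and 1.05% of all promoters. A match is a run of letters and not a measured site. The windows below are shown because these genes fell with AdenoCre and hold a motif. Elovl5, Cyp51, Insig1 and Lss had the smallest adjusted p among such members, and Hmgcs1 was added, after the search, for its sterol regulatory element core. Each is written 5′ to 3′ on the strand of the gene and ends at the base before its start, and capitals mark every match (ATTGG is CCAAT on the opposite strand).
Hmgcs1: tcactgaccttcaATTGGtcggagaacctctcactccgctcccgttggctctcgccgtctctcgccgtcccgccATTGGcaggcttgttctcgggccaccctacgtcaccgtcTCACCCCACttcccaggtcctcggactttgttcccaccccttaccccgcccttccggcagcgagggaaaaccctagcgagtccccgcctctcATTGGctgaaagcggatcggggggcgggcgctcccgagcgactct
Insig1: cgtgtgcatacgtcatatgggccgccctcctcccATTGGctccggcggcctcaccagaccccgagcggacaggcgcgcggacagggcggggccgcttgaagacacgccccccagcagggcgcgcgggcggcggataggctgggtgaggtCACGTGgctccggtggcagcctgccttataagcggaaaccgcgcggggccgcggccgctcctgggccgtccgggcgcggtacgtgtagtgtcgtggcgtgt
Cyp51: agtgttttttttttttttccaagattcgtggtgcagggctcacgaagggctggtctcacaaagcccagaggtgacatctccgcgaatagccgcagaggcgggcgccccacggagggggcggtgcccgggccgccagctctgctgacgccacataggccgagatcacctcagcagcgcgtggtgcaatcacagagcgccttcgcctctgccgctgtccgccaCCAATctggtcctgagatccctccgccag
Lss: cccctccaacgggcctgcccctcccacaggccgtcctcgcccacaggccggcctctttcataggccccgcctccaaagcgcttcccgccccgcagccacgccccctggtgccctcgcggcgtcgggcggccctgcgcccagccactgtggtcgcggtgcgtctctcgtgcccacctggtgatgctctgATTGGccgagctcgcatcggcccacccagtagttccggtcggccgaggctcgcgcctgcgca
Elovl5: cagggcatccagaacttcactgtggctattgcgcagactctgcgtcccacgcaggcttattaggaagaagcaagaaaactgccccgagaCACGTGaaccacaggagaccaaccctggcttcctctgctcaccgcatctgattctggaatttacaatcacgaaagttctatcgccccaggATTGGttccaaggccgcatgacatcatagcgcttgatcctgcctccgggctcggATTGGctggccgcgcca
The windows lie at chr13:119690101-119690350 (plus strand) for Hmgcs1, chr5:28071162-28071411 (plus strand) for Insig1, chr5:4104698-4104947 (minus strand) for Cyp51, chr10:76531355-76531604 (plus strand) for Lss and chr9:77917115-77917364 (plus strand) for Elovl5. Positions are those of the last base of a match, and no matches overlapped in these windows. In Hmgcs1 the sterol regulatory element core ended 129 bases before the gene start, with CCAAT matches 233, 172 and 41 bases before it. Insig1 held an E-box 96 and a CCAAT 212 bases before the start, and Elovl5 an E-box 156 and CCAAT matches 67 and 13 bases before it. The CCAAT of Cyp51 lay 25 bases before the start and that of Lss 58 bases before it.

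Every enzyme of either branch that passed the test was lower in AdenoCre than in AdenoGFP cells. Of the 16 sterol enzymes 11 fell, none rose and 5 did not pass the test, with a median difference of -0.51. Of the 10 fatty acid enzymes 5 fell and 5 did not pass, with a median of -0.37. The median of all tested genes was 0.04. Over the module 18 members fell and 1 rose, while 6.24% of all tested genes fell and 12.9% rose. A difference of the same sign at all 5 times was negative for 11 sterol and 7 fatty acid enzymes, against 11.1% of all genes, and positive for none of either branch, against 21.1%.

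Among the enzymes that build the isoprenoid units, the HMG-CoA synthase Hmgcs1 had the largest difference. It read 11.89, 11.90, 11.87, 11.07 and 10.71 in AdenoCre cells, against 12.37, 12.79, 12.43, 12.51 and 12.32 in AdenoGFP cells at 0, 1, 3, 6 and 9 h. Every AdenoCre array lay below every AdenoGFP array, with a difference of -1.0 ± 0.18 (adjusted p = 0.00814, limma). The isomerase Idi1 (-0.77 ± 0.17), the farnesyl diphosphate synthase Fdps (-0.67 ± 0.13) and the phosphomevalonate kinase Pmvk (-0.53 ± 0.16) fell as well. Mevalonate kinase Mvk (-0.17 ± 0.15) and the decarboxylase Mvd (-0.41 ± 0.18) did not pass the test.

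From squalene to cholesterol, Sqle, the squalene epoxidase, read 10.53, 10.59, 10.59, 10.09 and 9.77 in AdenoCre cells, against 11.02, 11.18, 11.07, 10.77 and 10.82 in AdenoGFP cells at the 5 times (-0.66 ± 0.10, adjusted p = 0.00535, limma). Cyp51, the lanosterol demethylase, read 10.27, 10.52, 10.50, 9.76 and 9.24 in AdenoCre cells, against 10.93, 11.05, 11.04, 10.70 and 10.56 in AdenoGFP cells (-0.80 ± 0.13, adjusted p = 0.0057, limma). Neither gene had overlapping groups, and the gap was widest at 9 h, at -1.06 for Sqle and -1.33 for Cyp51. Lanosterol synthase Lss (-0.71 ± 0.12), squalene synthase Fdft1 (-0.67 ± 0.14), the reductase of the last step Dhcr7 (-0.50 ± 0.12), the sterol dehydrogenase Nsdhl (-0.44 ± 0.11) and the desaturase Sc5d (-0.36 ± 0.08) also fell. The sterol reductase Tm7sf2 (-0.37 ± 0.12), the ketosteroid reductase Hsd17b7 (-0.06 ± 0.11) and the sterol isomerase Ebp (0.04 ± 0.11) did not pass. The suffix of the Hsd17b7 probe set marks probes that can match other sequences, and its other sets above the limit differed by -0.37 and -0.35.

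Among the fatty acid enzymes, 5 that desaturate or elongate chains fell, and the 4 that supply acetyl-CoA or make the chain did not pass the test. Scd1, a stearoyl-CoA desaturase, read 11.02, 10.97, 10.98, 10.69 and 10.48 in AdenoCre cells, against 11.63, 11.82, 11.60, 11.61 and 11.51 in AdenoGFP cells (-0.81 ± 0.09, adjusted p = 0.00187, limma). Its relative Scd2 read 13.07, 13.19, 12.88, 12.64 and 12.57 in AdenoCre cells, against 13.60, 13.72, 13.48, 13.33 and 13.36 in AdenoGFP cells (-0.62 ± 0.08, adjusted p = 0.00268, limma). Elovl5, an elongase of polyunsaturated chains, read 11.12, 11.23, 11.13, 10.98 and 10.98 in AdenoCre cells, against 11.60, 11.76, 11.75, 11.55 and 11.80 in AdenoGFP cells (-0.60 ± 0.08, adjusted p = 0.00336, limma). The groups of these 3 genes did not overlap, and the differences were already -0.61, -0.52 and -0.48 at 0 h. Elovl6, an elongase of saturated chains (-0.65 ± 0.12), and the desaturase Fads1 (-0.53 ± 0.09) fell too. The ATP-citrate lyase Acly (-0.22 ± 0.09), the acetyl-CoA synthetase Acss2 (-0.11 ± 0.10), the acetyl-CoA carboxylase Acaca (-0.19 ± 0.10), the fatty acid synthase Fasn (-0.09 ± 0.10) and the desaturase Fads2 (-0.21 ± 0.08) did not pass.

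Of the regulators, Insig1 fell and Scap rose. Insig1 read 8.68, 9.43, 8.85, 7.73 and 7.28 in AdenoCre cells, against 9.45, 9.91, 9.75, 9.13 and 9.07 in AdenoGFP cells (-1.07 ± 0.18, adjusted p = 0.00664, limma). It was lower in AdenoCre cells at each time, and had the most negative difference of the 32 genes, although its AdenoCre array at 1 h lay above its AdenoGFP arrays at 6 and 9 h. Scap read 9.40, 9.69, 9.70, 10.14 and 10.23 in AdenoCre cells, against 9.18, 9.16, 9.19, 9.13 and 9.36 in AdenoGFP cells (0.63 ± 0.12, adjusted p = 0.0115, limma), and its groups did not overlap. The carrier Stard4, which moves cholesterol between membranes, read 9.30, 9.55, 9.21, 8.64 and 8.45 in AdenoCre cells, against 9.68, 10.0, 9.77, 9.75 and 9.81 in AdenoGFP cells (-0.77 ± 0.15). Srebf1 (-0.27 ± 0.13) and Srebf2 (-0.17 ± 0.10), which encode the SREBPs, and Insig2 (0.18 ± 0.09) did not pass the test. The calls of 12 of 19 members held in every alternative run. Leaving out single time pairs ended the call of Pmvk (without 0, 3, 6 or 9 h, -0.59 to -0.36), Idi1 (1, 6 or 9 h, -0.68 to -0.67), Nsdhl (0, 3, 6 or 9 h, -0.50 to -0.34), Dhcr7 (3, 6 or 9 h, -0.51 to -0.41) and Sc5d (3 h, -0.38). Without the time block the calls of Insig1 (-1.07), Fdft1 (-0.67) and Pmvk ended, and as the mean of their probe sets those of Fdft1 (-0.32) and Sc5d (-0.26).

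**Figure D1:**
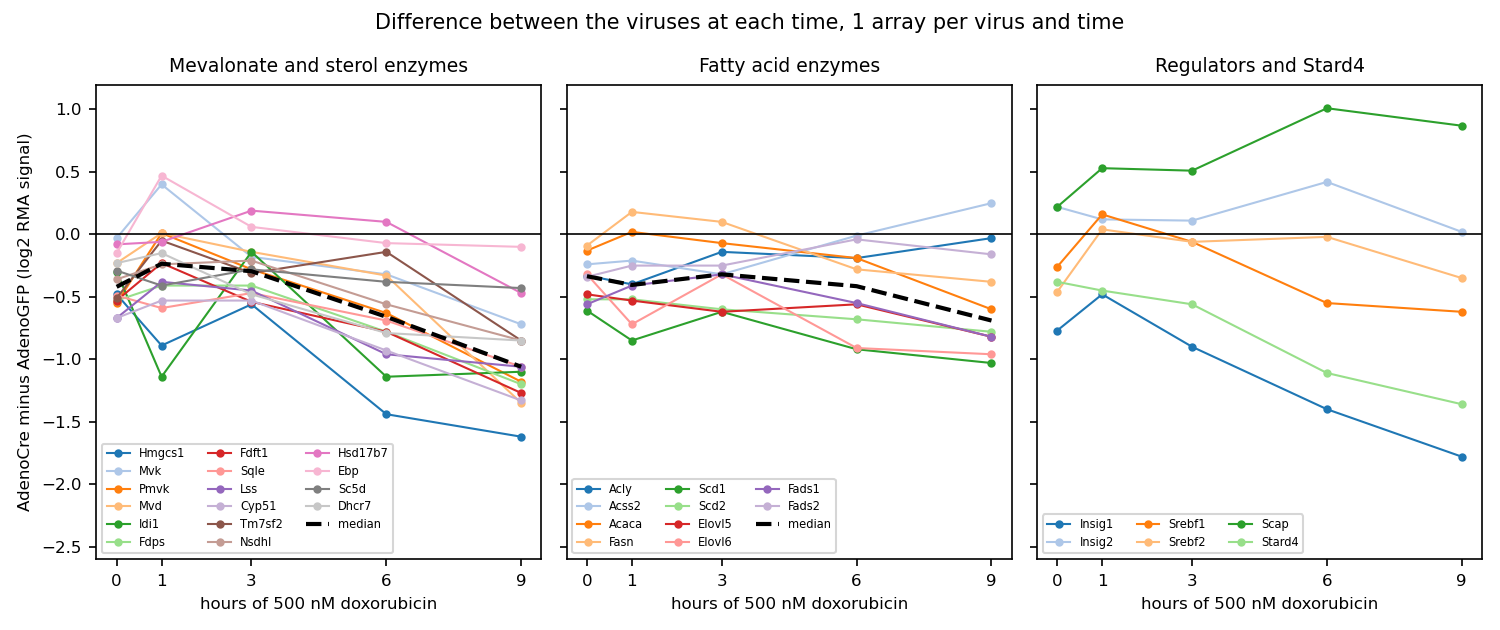
Difference between the AdenoCre and the AdenoGFP array at each time, in log2 RMA signal, against hours of doxorubicin for the sterol enzymes, the fatty acid enzymes and the regulators with Stard4; each line is a gene and the dashed lines are branch medians. The sterol median reached -1.06 at 9 h and the fatty acid median -0.69, while Scap stayed above 0 at all 5 times.

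By time, the median of the sterol branch was -0.42, -0.23, -0.29, -0.66 and -1.06 at 0, 1, 3, 6 and 9 h. The fatty acid branch had medians of -0.33, -0.40, -0.32, -0.42 and -0.69. At 0 h, before any drug, all 16 sterol enzymes and all 10 fatty acid enzymes were lower on the 1 AdenoCre array than on the 1 AdenoGFP array. The median difference of all tested genes at 0 h was 0.029, and the share of all genes that were lower at that time was not counted. The sterol median was less negative than the fatty acid median at 1 and 3 h and more negative at 0, 6 and 9 h. Within AdenoCre cells, the sterol branch changed from its 0 h level by 0.30, 0.22, -0.08 and -0.43 at 1, 3, 6 and 9 h, and the fatty acid branch by 0.12, 0.02, -0.19 and -0.50. Within AdenoGFP cells the sterol medians were 0.16, 0.11, 0.14 and 0.18, and the fatty acid medians 0.05, -0.06, -0.07 and -0.11.

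Slopes on hours within AdenoCre cells were called downward for 7 members and upward for 2, against 1.45% and 3.95% of all tested genes. Per hour, Insig1 fell by 0.21 ± 0.04, Hmgcs1 by 0.15 ± 0.02, Cyp51 by 0.13 ± 0.03, Stard4 by 0.12 ± 0.02, Fdft1 by 0.12 ± 0.03, Sqle by 0.09 ± 0.02 and Fads1 by 0.08 ± 0.02. Scap (0.09 ± 0.02) and Acss2 (0.08 ± 0.02) rose. No member had a called slope within AdenoGFP cells, where 2 members had an unadjusted p below 0.05, against 13.1% of all genes, and 0.00789% of all genes were called upward and 0% downward. The difference between the slopes was called for no member (12 of 32 had an unadjusted p below 0.05, against 8.4% of all genes), and for 0.181% of all genes upward and 0% downward. The slope difference lay below 0 for 16 of 16 sterol enzymes (median -0.08 per hour) and 7 of 10 fatty acid enzymes (median -0.03), with a median of -0.007 over all genes. After adjustment, a steeper fall in AdenoCre than in AdenoGFP cells was not shown for any single member. No call of an AdenoCre slope held in every alternative: 0 members were called without the 9 h arrays, 1 without the 6 h, 1 without the 1 h, 3 without the 3 h and 6 without the 0 h arrays.

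Of 20 mitotic genes in the virus comparison 9 fell and none rose (median -0.44), among them the cytokinesis regulator Ect2 (-0.91 ± 0.13). Their summed signal was 21400 to 31400 in AdenoCre cells and 26800 to 37200 in AdenoGFP cells. The adipocyte markers summed to 636 to 935 in AdenoCre cells and 460 to 553 in AdenoGFP cells, with 1 of 3 tested markers called (Fabp4, 0.67 ± 0.09). Of 5 tested macrophage markers 2 rose (Cd14, 1.29 ± 0.28, and Cd68, 0.81 ± 0.17), and the list summed to 366 to 682 in AdenoCre cells and 335 to 445 in AdenoGFP cells, with Ptprc, Adgre1 and Mrc1 below the filter limit. Of 4 tested epithelial markers 2 fell (Krt18, -1.05 ± 0.22, and Krt8, -0.64 ± 0.11), with sums of 217 to 272 in AdenoCre cells and 291 to 342 in AdenoGFP cells. The part of these lists in the fall of the lipid genes was not tested.

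Other lipid genes did not all follow the module. Of all tested genes 12.9% rose and 6.24% fell between the viruses. Of 22 tested genes of fatty acid oxidation 9 rose and none fell, including the carnitine palmitoyltransferase Cpt1c (1.43 ± 0.19), the nuclear receptor Ppard (0.65 ± 0.10) and the acyl-CoA dehydrogenases Acadvl (0.65 ± 0.12) and Acads (0.56 ± 0.10). Of 22 genes of lipid transport and storage 5 rose and 3 fell. Lipoprotein lipase Lpl (-1.55 ± 0.11) and the LDL receptor ligase Mylip (-0.68 ± 0.09) fell, and the lipid droplet protein Plin2 (0.80 ± 0.10) and the oxysterol-binding protein relative Osbpl5 (0.92 ± 0.13) rose. Around SREBP control 4 of 24 genes rose and none fell, among them the phosphatidate phosphatase Lpin1 (1.43 ± 0.33) and the ubiquitin ligase subunit Fbxw7 (0.96 ± 0.20). The sterol oxidase Msmo1 (-0.49 ± 0.08) was the 1 of 9 further sterol genes that fell, and 1 rose. Of 27 further fatty acid genes 3 rose, Lpin1 again among them, and 3 fell, the acyl-CoA ligases Acsl3 (-0.64 ± 0.10) and Acsl4 (-0.82 ± 0.18) among the falls. The rises around SREBP control and among the further fatty acid genes lay near the share of all tested genes that rose.

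With siP53, every enzyme of either branch that passed the test was higher than with control siRNA, in both experiments. In lincP21KD 10 of 16 sterol and 8 of 10 fatty acid enzymes rose and none fell, with medians of 0.55 and 0.43 against 0.018 over all genes. Over the module 18 members rose and 1 fell, against 7.01% and 5.74% of all tested genes. Per array, the lincP21KD sterol median stood at 0.44, 0.38 and 0.83 from the control mean with siP53, and the fatty acid median at 0.42, 0.37 and 0.55. Replicate 3 stood highest in both branches, and no siScramble array has that number. Leaving out single arrays gave sterol medians of 0.41 to 0.65 and fatty acid medians of 0.36 to 0.50. In hnRNPKKD 11 of 16 sterol and 7 of 10 fatty acid enzymes rose and none fell, with medians of 0.58 and 0.72 against -0.014 over all genes. There 20 members rose and 1 fell, against 19.3% and 19.2% of all genes. Groups that do not overlap are common with so few arrays: all siP53 arrays lay above all controls for 25.1% of tested genes in lincP21KD and 21.2% in hnRNPKKD, and below for 21.1% and 20.8%.

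Elovl5 had the smallest adjusted p of the module in both experiments. It read 11.86, 11.89 and 11.86 with siP53, against 10.84 and 10.95 with siScramble (0.98 ± 0.09, adjusted p = 0.000166, limma). In hnRNPKKD it read 11.20, 10.80 and 11.32 with siP53, against 8.41, 9.40 and 8.47 with siControl (2.35 ± 0.22, adjusted p = 5.62e-06, limma). All siP53 arrays lay above the controls, of which replicate 2 of siControl was the highest. The siControl arrays had the lowest Elovl5 levels of hnRNPKKD, below every array of the other groups (lowest 9.9, with siLincp21). The siP53 difference was larger in hnRNPKKD by 1.37 ± 0.28 (adjusted p = 0.0034, limma). The suffix of this probe set marks probes that can match other sequences, and the second Elovl5 probe set differed by 2.41 in hnRNPKKD.

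Idi1 read 11.83, 11.81 and 12.27 with siP53, against 10.96 and 10.99 with siScramble (0.99 ± 0.17, adjusted p = 0.00386, limma). In hnRNPKKD it read 11.42, 11.55 and 11.58 with siP53, against 9.83, 10.57 and 9.91 with siControl (1.41 ± 0.17, adjusted p = 3.1e-05, limma). The groups did not overlap in either experiment. Scd2 read 13.54, 13.57 and 13.67 with siP53, against 13.10 and 13.07 with siScramble (0.50 ± 0.07), and 13.38, 13.14 and 13.39 with siP53, against 12.06, 12.43 and 11.88 with siControl (1.18 ± 0.13). Scd1 read 11.75, 11.79 and 12.08 with siP53, against 11.30 and 11.32 with siScramble (0.56 ± 0.10), and 11.24, 11.28 and 11.39 with siP53, against 10.09, 10.64 and 10.25 with siControl (0.97 ± 0.12). Both desaturases were higher on every siP53 array than on any control array of the same experiment.

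Elovl6 read 10.05, 9.82 and 10.12 with siP53, against 8.68, 8.93 and 8.44 with siControl (1.31 ± 0.13, adjusted p = 1.06e-05, limma), and rose by 0.82 ± 0.16 in lincP21KD. Cyp51 read 10.74, 10.56 and 10.72 with siP53, against 9.78, 10.05 and 9.69 with siControl (0.83 ± 0.11, adjusted p = 9.08e-05, limma), and rose by 0.67 ± 0.15 in lincP21KD. Mvk read 8.54, 8.35 and 8.71 with siP53, against 7.80 and 8.01 with siScramble (0.63 ± 0.12), and rose by 0.61 ± 0.19 in hnRNPKKD. In the arrays given for these 3 genes, every siP53 array lay above every control. Fdps read 12.16, 12.12 and 12.35 with siP53, against 11.51 and 11.53 with siScramble (0.68 ± 0.09, adjusted p = 0.000938, limma), and 11.18, 11.92 and 10.86 with siP53, against 11, 11.48 and 11.20 with siControl (0.09 ± 0.22). Its groups were apart in lincP21KD and overlapped in hnRNPKKD. The members that rose in both experiments numbered 14, of 18 in lincP21KD and 20 in hnRNPKKD. Over all tested genes 67.9% of those that rose in lincP21KD also rose in hnRNPKKD, and 24.6% the other way round.

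Scap was the single member that fell, in both experiments. It read 9.20, 9.07 and 9.17 with siP53, against 9.36 and 9.55 with siScramble (-0.31 ± 0.09, adjusted p = 0.0489, limma), and 9.25, 9.31 and 9.48 with siP53, against 9.68, 9.70 and 9.70 with siControl (-0.35 ± 0.09, adjusted p = 0.0107, limma). Its siP53 arrays lay below all controls. Insig1 (1.41 ± 0.19) and Stard4 (0.96 ± 0.14) rose in hnRNPKKD, and had differences of 0.76 ± 0.27 and 0.49 ± 0.16 in lincP21KD that did not pass. In hnRNPKKD Hmgcs1 (0.78 ± 0.14), Sqle (0.64 ± 0.11), Lss (0.61 ± 0.11) and Dhcr7 (1.21 ± 0.21) rose, as did the chain-making enzymes Fasn (0.71 ± 0.11) and Acaca (0.74 ± 0.13). Those 2 rose in lincP21KD as well (Fasn 0.40 ± 0.10, Acaca 0.36 ± 0.09). Fads2 read 8.44, 9.48 and 8.10 with siP53, against 8.90, 9.43 and 9.33 with siControl, a wide spread, and did not pass (-0.54 ± 0.30).

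The lincP21KD calls rested on both siScramble arrays: 4 members were called without replicate 1 and 7 without replicate 2, and Idi1, Fdps, Scd2 and Elovl5 kept the call in every alternative run. In hnRNPKKD 14 of 21 calls held in every alternative. Mvk (0.41 to 0.58), Pmvk (0.27 to 0.37), Sc5d (0.28 to 0.33) and Fads1 (0.21 to 0.27) lost the call without siP53 replicate 2, siControl replicate 1 or siControl replicate 3, Pmvk and Fads1 also without siP53 replicate 3, and Scap without siP53 replicate 1 (-0.30). Fdft1 rose by 0.55 ± 0.13 on the probe set used, while its other probe set above the limit differed by 0.04.

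All 20 mitotic genes rose with siP53 in hnRNPKKD (median 0.99), with a summed signal of 26900 to 29800 with siP53 and 14200 to 17300 with siControl. In lincP21KD 8 of 20 rose (median 0.37), with 51300 to 61000 with siP53 and 44300 to 46000 with siScramble. In hnRNPKKD adipocyte markers summed to 418 to 855 with siP53 and 1060 to 1100 with siControl, with 2 of 3 tested markers called lower. The sums in lincP21KD were 431 to 486 with siP53 and 420 to 428 with siScramble. Of 5 tested macrophage markers 2 fell in hnRNPKKD and 3 in lincP21KD, with Cd68 at -2.63 ± 0.33 and -1.81 ± 0.14, while Ptprc and Mrc1 lay below the limit in every group. Macrophage sums were 249 to 378 with siP53 and 771 to 886 with siControl in hnRNPKKD, and 491 to 530 with siP53 and 735 to 745 with siScramble in lincP21KD. The epithelial keratin Krt18 fell in hnRNPKKD (-3.16 ± 0.13, list sum 194 to 213 with siP53 and 397 to 413 with siControl), with Cdh1 below the limit in both groups. The part of these lists in the rise of the lipid genes was not tested. Of 22 genes of fatty acid oxidation 8 fell and 1 rose in hnRNPKKD, including Ppard (-1.51 ± 0.09) and Cpt1c (-1.80 ± 0.14). Both also fell in lincP21KD (Ppard -0.35 ± 0.09, Cpt1c -0.86 ± 0.12). Of 22 genes of lipid transport and storage 10 rose and 4 fell in hnRNPKKD, and 2 rose and 1 fell in lincP21KD. Over all tested genes 19.3% rose and 19.2% fell in hnRNPKKD, and 7.01% rose and 5.74% fell in lincP21KD. Mylip (1.37 ± 0.12), Lipa, the lysosomal lipase (0.92 ± 0.13), and Cav1, the caveolar coat protein (0.93 ± 0.13), rose in hnRNPKKD. Lpl and the oxysterol hydroxylase Cyp7b1 rose in lincP21KD (1.10 ± 0.15 and 1.0 ± 0.11) and in hnRNPKKD (1.17 ± 0.16 and 0.89 ± 0.13). The cholesterol exporter Abca1 fell in both (-0.90 ± 0.11 in hnRNPKKD and -0.90 ± 0.11 in lincP21KD). In hnRNPKKD Lpin1 (-2.81 ± 0.12) and the AMP kinase subunit Prkaa2 (-1.85 ± 0.12) fell. Other AMP kinase subunits had both signs, with Prkab1 lower (-0.56 ± 0.08) and Prkab2 higher (0.89 ± 0.18). Among the further sterol genes Msmo1 rose (0.61 ± 0.12) and Ggps1 fell (-0.35 ± 0.10).

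**Figure D2:**
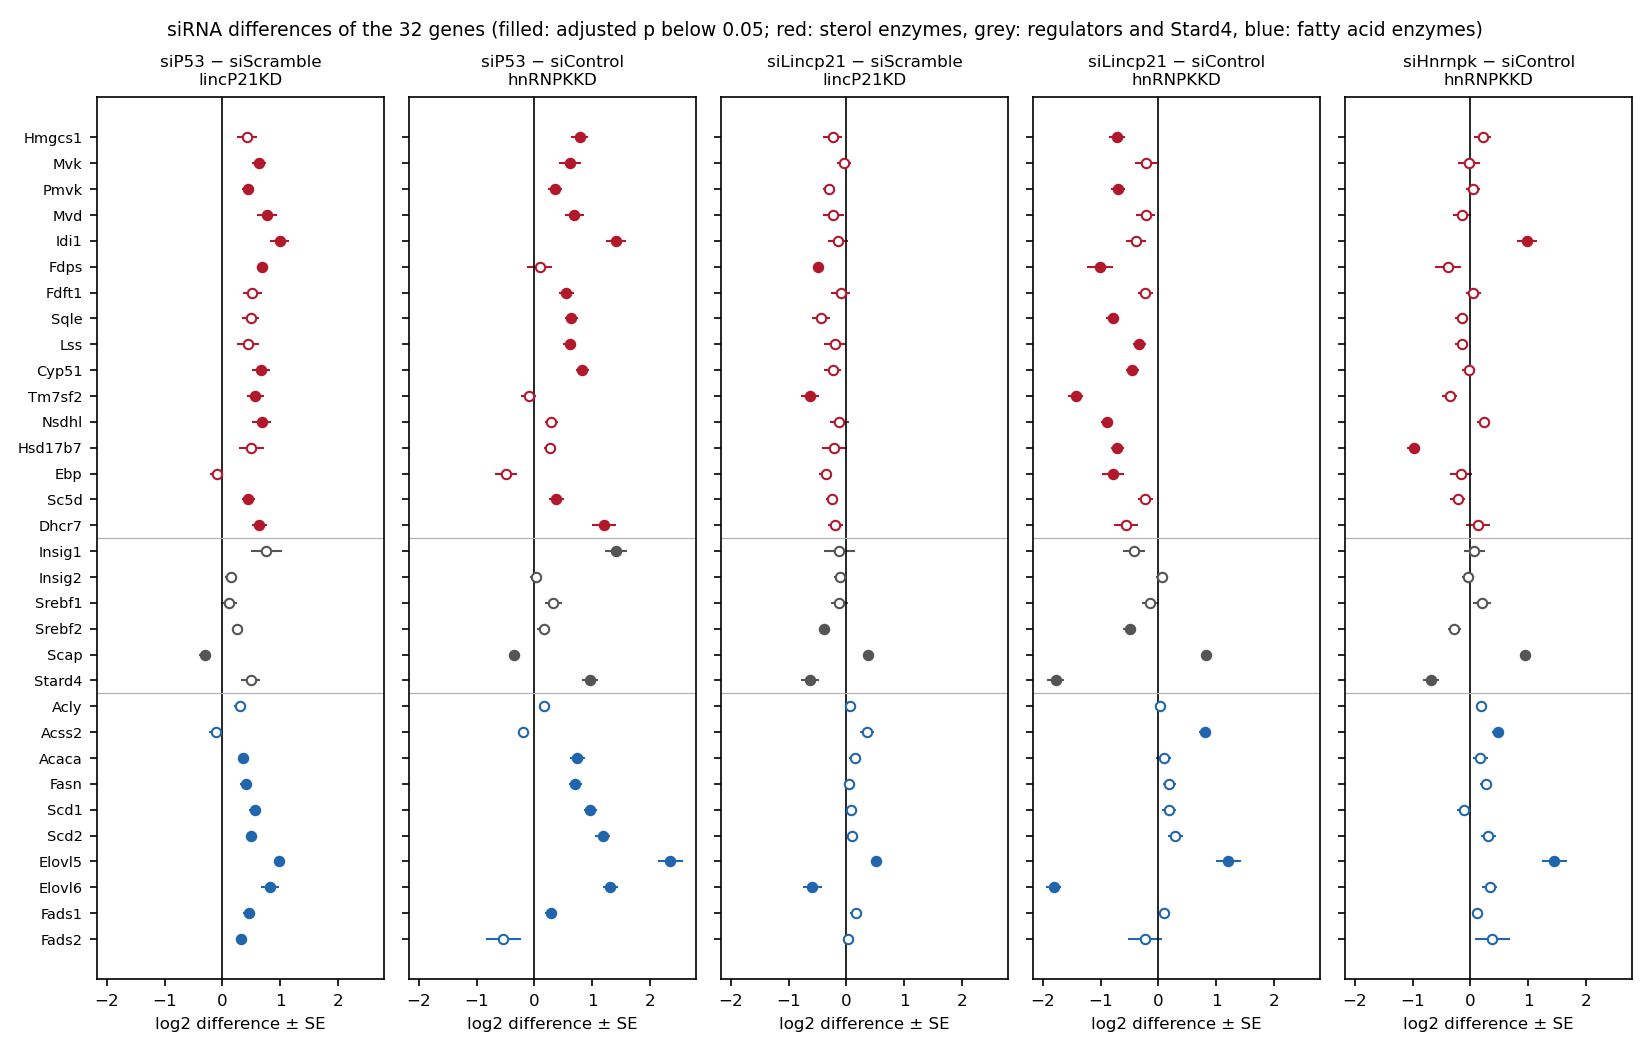
Log2 difference of each of the 32 genes with its standard error in the 5 siRNA comparisons, with filled points for an adjusted p below 0.05 and lines between sterol enzymes, regulators with Stard4, and fatty acid enzymes. With siP53 most points lie right of 0 in both branches, with siLincp21 all 16 sterol enzymes lie left of 0 on the probe sets used, and Scap lies left of 0 with siP53 and right of 0 with the other siRNAs.

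With siLincp21, every sterol enzyme that passed the test was lower than with control siRNA, while the called fatty acid enzymes had both signs, and no test compared the branches. In hnRNPKKD 10 of 16 sterol enzymes fell and none rose, all 16 lay below 0 on the probe sets used, and the median was -0.63. Of the 10 fatty acid enzymes 1 fell, 2 rose and 7 did not pass, with a median of 0.14 against 0.009 over all genes. Over the module 13 members fell and 3 rose, against 11.8% and 17.2% of all tested genes. In lincP21KD 2 of 16 sterol enzymes fell and 14 did not pass (median -0.24). All 16 lay below 0 on the probe sets used, but Cyp51 (-0.24 ± 0.15 on the set used) differed by 0.35 and 0.31 on its other sets, Mvk (-0.04 ± 0.12) by 0.07 on another, and Hmgcs1 (-0.24 ± 0.17) by 0.03 on its dimmest. In the same experiment 9 of 10 fatty acid enzymes lay above 0 (median 0.09), with 1 rise and 1 fall. There 5 members fell and 2 rose, against 4.39% and 7.47% of all genes. The siRNA comparisons of an experiment use the same control arrays. Every siLincp21 array lay below every control for 21.3% of tested genes in hnRNPKKD and 20.2% in lincP21KD, and above for 25.8% and 25.4%.

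Per array, the sterol median stood at -0.61, -0.65 and -0.51 from the control mean with siLincp21 in hnRNPKKD, against -0.10, 0.24 and -0.11 with siControl. The fatty acid median stood at 0.08, 0.12 and 0.25 with siLincp21, against -0.03, 0.18 and -0.12 with siControl. The sterol medians of the groups were apart and the fatty acid medians overlapped. In lincP21KD the sterol median stood at -0.35, -0.28 and -0.07 with siLincp21, against -0.03 and 0.03 with siScramble. The fatty acid median stood at 0.11, 0.12 and 0.08 with siLincp21, against -0.05 and 0.05 with siScramble. Replicate 3 of siLincp21, a number that no siScramble array has, stood highest in the sterol branch. Replicate 2 of siControl stood above the other siControl arrays in both branches. Without it the hnRNPKKD siLincp21 medians were -0.48 for the sterol and 0.21 for the fatty acid branch, with 12 members lower and 5 higher.

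**Figure D3:**
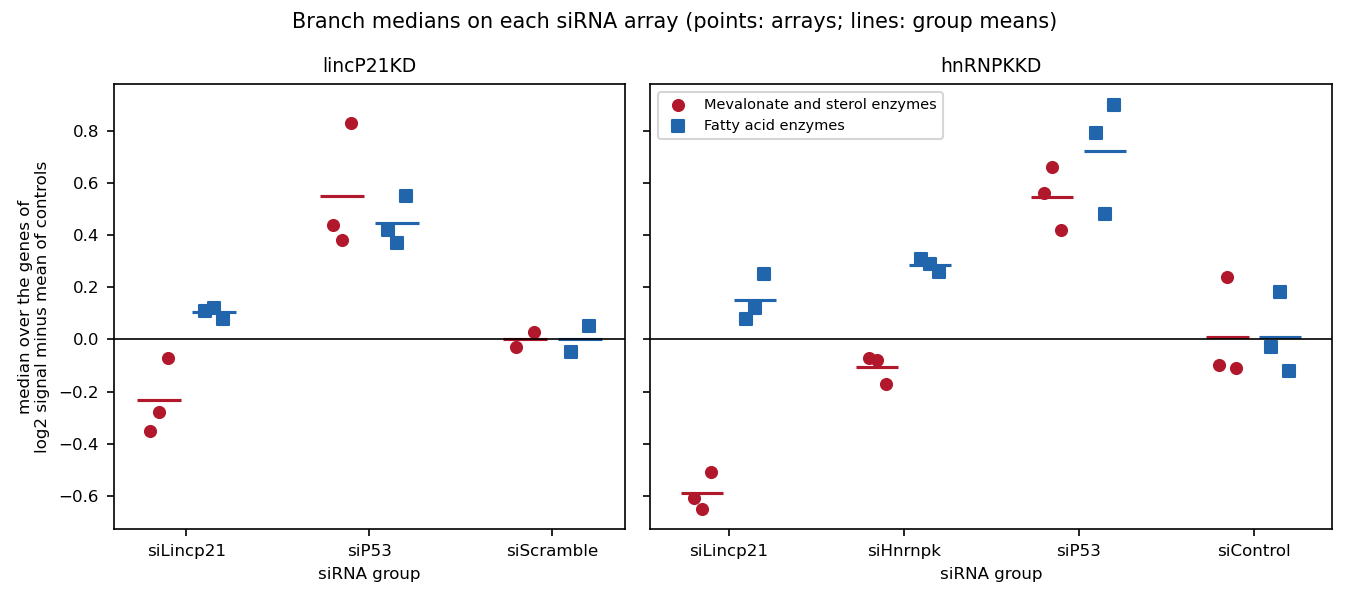
Median over the sterol enzymes (circles) and over the fatty acid enzymes (squares) of the log2 signal minus the mean of the controls, for each array of the lincP21KD and hnRNPKKD experiments, with a line at each group mean. The siLincp21 arrays of hnRNPKKD lie at -0.61, -0.65 and -0.51 for sterol enzymes and at 0.08, 0.12 and 0.25 for fatty acid enzymes.

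In hnRNPKKD, Elovl6 and Stard4 had the smallest adjusted p of the module. Elovl6 read 6.72, 7.07 and 6.81 with siLincp21, against 8.68, 8.93 and 8.44 with siControl (-1.81 ± 0.13, adjusted p = 1.99e-06, limma), and 8.87, 9.48 and 9.16 with siLincp21, against 9.66 and 9.86 with siScramble (-0.59 ± 0.16, adjusted p = 0.0411, limma). Stard4 read 6.80, 6.93 and 7.26 with siLincp21, against 8.79, 8.88 and 8.67 with siControl (-1.78 ± 0.14, adjusted p = 3.49e-06, limma), and 8.99, 9.35 and 9.52 with siLincp21, against 9.93 and 9.91 with siScramble (-0.63 ± 0.16, adjusted p = 0.0295, limma). Neither gene had overlapping groups in either experiment. The siLincp21 difference changed between the experiments, hnRNPKKD minus lincP21KD, by -1.22 ± 0.22 for Elovl6 and -1.15 ± 0.23 for Stard4 (adjusted p = 0.00198 and 0.00377, limma). By this test 1 member was higher and 4 were lower in hnRNPKKD, against 4.63% and 3.51% of all genes, and for siP53 2 were higher and 1 lower, against 7.14% and 7.35%. The other Stard4 probe sets differed by -0.63 and -1.58 in hnRNPKKD.

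Among sterol enzymes, Tm7sf2 read 6.14, 6.57 and 6.14 with siLincp21, against 7.64, 7.85 and 7.64 with siControl (-1.43 ± 0.13, adjusted p = 9.94e-06, limma), and 6.44, 6.77 and 6.36 with siLincp21, against 7.08 and 7.23 with siScramble (-0.63 ± 0.15). Nsdhl read 9.26, 9.57 and 9.33 with siLincp21, against 10.19, 10.43 and 10.21 with siControl (-0.89 ± 0.11), and did not pass in lincP21KD (-0.12 ± 0.16). Fdps read 11.04, 11.11 and 10.96 with siLincp21, against 11.51 and 11.53 with siScramble (-0.49 ± 0.09, adjusted p = 0.00768, limma), and fell by 1.01 ± 0.22 in hnRNPKKD. In the arrays given, each of these 3 genes was lower with siLincp21 than on any control array. Sqle (-0.79 ± 0.11), Ebp (-0.79 ± 0.19), Hmgcs1 (-0.71 ± 0.14), Hsd17b7 (-0.71 ± 0.11), Pmvk (-0.70 ± 0.12), Cyp51 (-0.45 ± 0.11) and Lss (-0.33 ± 0.11) fell too in hnRNPKKD. Dhcr7 (-0.56 ± 0.21) and Idi1 (-0.39 ± 0.17) did not pass, and Msmo1 fell (-0.55 ± 0.12).

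The regulator gene Srebf2 read 8.87, 8.89 and 8.84 with siLincp21, against 9.33 and 9.17 with siScramble (-0.38 ± 0.08), and fell by 0.50 ± 0.11 in hnRNPKKD, where its second probe set differed by -0.03. Scap read 10.39, 10.55 and 10.62 with siLincp21, against 9.68, 9.70 and 9.70 with siControl (0.82 ± 0.09, adjusted p = 4.61e-05, limma), and 9.75, 9.81 and 9.92 with siLincp21, against 9.36 and 9.55 with siScramble (0.37 ± 0.09, adjusted p = 0.0268, limma). Its siLincp21 arrays lay above all controls in both experiments. A second Scap probe set lay below the filter limit. Insig1 did not pass in hnRNPKKD (-0.43 ± 0.19).

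Of the fatty acid enzymes, Acss2, which makes acetyl-CoA from acetate, read 8.62, 8.59 and 8.66 with siLincp21, against 7.79, 7.74 and 7.92 with siControl (0.81 ± 0.10, adjusted p = 6.63e-05, limma), and did not pass in lincP21KD (0.36 ± 0.12). Elovl5 read 11.41, 11.55 and 11.25 with siLincp21, against 10.84 and 10.95 with siScramble (0.51 ± 0.09, adjusted p = 0.00868, limma), and rose by 1.21 ± 0.22 in hnRNPKKD. Elovl5 and Elovl6, both elongases, thus had opposite signs with siLincp21. All 7 members called in lincP21KD were called in the same direction in hnRNPKKD, where 16 were called. Over all tested genes 59.5% of those that fell in lincP21KD also fell in hnRNPKKD (22.1% the other way round), and 64.9% of those that rose also rose there (28.2% the other way round). The lincP21KD calls depended on single arrays, with 0 called without siScramble replicate 1, 2 without siScramble replicate 2 and 3 without siLincp21 replicate 1. In hnRNPKKD 14 of 16 calls held in every alternative. Lss lost its call without siLincp21 replicate 1 or 3 or siControl replicate 1 or 2 (-0.36 to -0.21), with no filter and with centred arrays, and Cyp51 as the mean of its probe sets (-0.16), of which another differed by 0.33.

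Of 20 mitotic genes 16 fell with siLincp21 in hnRNPKKD (median -0.56, summed signal 10300 to 10900 with siLincp21 and 14200 to 17300 with siControl), and Krt18 fell (-3.02 ± 0.13, epithelial sum 197 to 215 with siLincp21). Adipocyte sums were 747 to 860 with siLincp21 and 1060 to 1100 with siControl. The part of these lists in the result was not tested. In lincP21KD 2 rose and none fell (median 0.20, summed signal 47800 to 53200 with siLincp21 and 44300 to 46000 with siScramble). Krt18 fell there (-0.72 ± 0.09), with epithelial sums of 363 to 399 with siLincp21 and 422 to 449 with siScramble. Of the adipocyte markers Fabp4 fell (-0.52 ± 0.11) and Pparg rose (0.58 ± 0.15), with sums of 339 to 417 with siLincp21 and 420 to 428 with siScramble. The macrophage marker Csf1r fell (-0.47 ± 0.10), with sums of 692 to 734 with siLincp21 and 735 to 745 with siScramble. The part of these lists was not tested in lincP21KD either. Genes of lipid transport and storage rose in hnRNPKKD, 11 of 22 with 1 fall, against 17.2% and 11.8% of all tested genes. They included Osbpl5 (1.64 ± 0.11), the cholesterol hydroxylase Ch25h (1.60 ± 0.15), Lipa (1.09 ± 0.13) and the lipoprotein receptor Vldlr (1.16 ± 0.16). The genes just named also rose with siP53 against the same siControl arrays, as did Npc1, Lpl and Cav1 among the other rises. Cyp27a1 rose with siLincp21 (0.73 ± 0.23) and fell with siP53 (-0.74 ± 0.23), and Abcg1, Stard5 and Lrp1 did not pass with siP53. With siHnrnpk the genes just named rose except Ch25h, and Lpl fell (-0.59 ± 0.16). The share of all tested genes with such shared calls was not counted. In lincP21KD 6 genes of transport and storage rose, Osbpl5 (0.75 ± 0.11) among them, and none fell, against 7.47% and 4.39% of all tested genes.

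**Figure D4:**
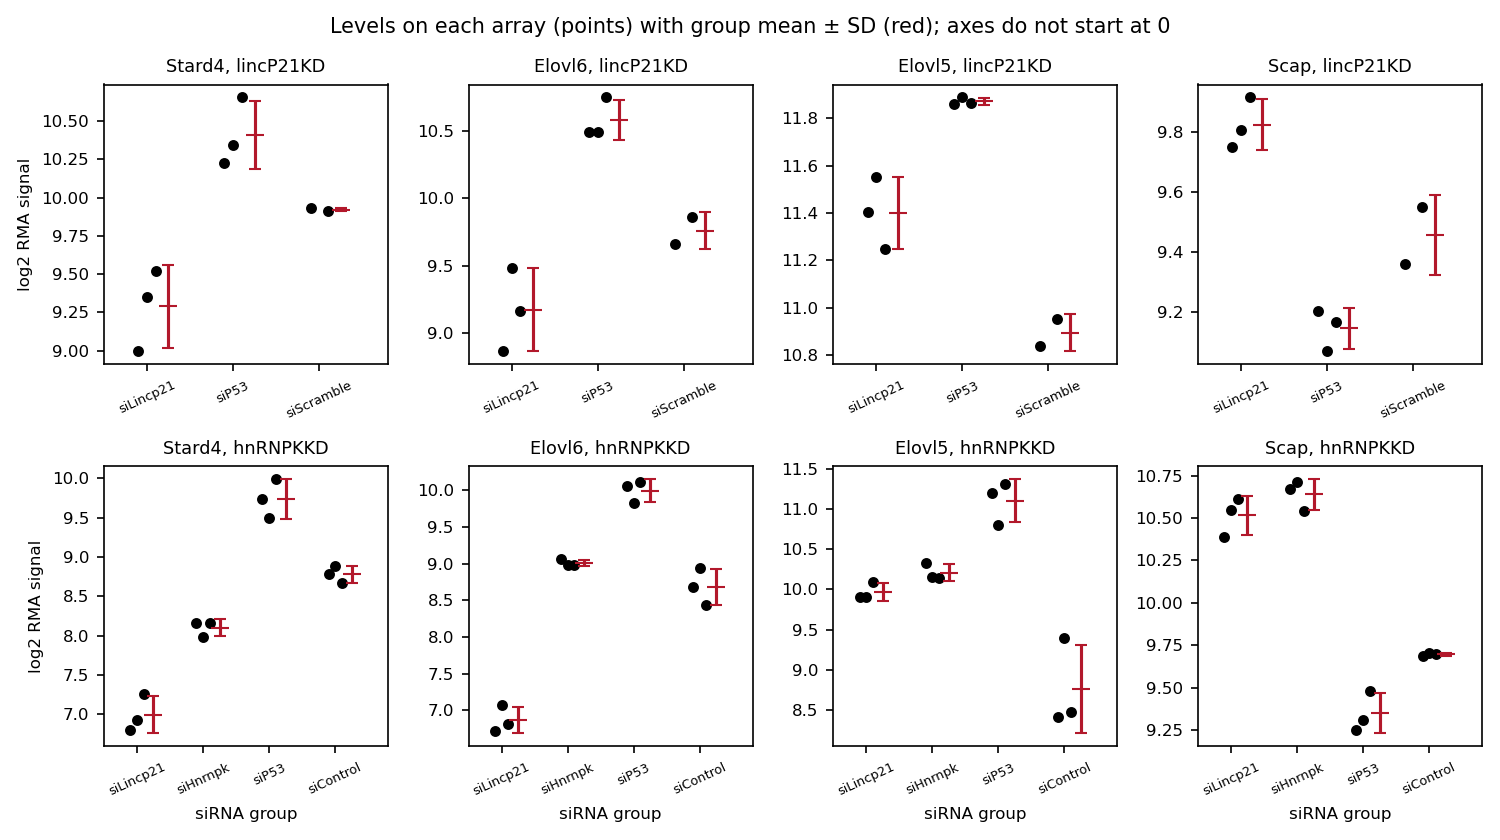
Log2 RMA signal of Stard4, Elovl6, Elovl5 and Scap on each array of the lincP21KD (top) and hnRNPKKD (bottom) experiments, with the group mean and SD in red; the axes do not start at 0. Stard4 and Elovl6 are lowest with siLincp21, and Scap is above its controls with siLincp21 and siHnrnpk and below them with siP53.

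With siHnrnpk, most members did not pass the test. Of the 16 sterol enzymes 1 rose and 1 fell (median -0.09), and of the 10 fatty acid enzymes 2 rose (median 0.29), against a median of -0.001 over all genes. Over the module 4 members rose and 2 fell, against 14.1% and 12.8% of all tested genes. The replicate numbers of siHnrnpk and siControl count as pairs, and the replicate block gave 4 members higher and 4 lower, against 15.5% and 14.6% of all genes. The members it added, both lower, were Tm7sf2 (-0.36 ± 0.10, adjusted p = 0.0165, limma) and Srebf2 (-0.28 ± 0.10, adjusted p = 0.0464, limma). Without siControl replicate 2 the sterol median was 0.04 and the fatty acid median 0.39, with 9 members called.

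The 6 members called without the block kept their call in every alternative run. Scap read 10.67, 10.71 and 10.54 with siHnrnpk, against 9.68, 9.70 and 9.70 with siControl (0.94 ± 0.09, adjusted p = 1.95e-05, limma). Elovl5 read 10.33, 10.16 and 10.14 with siHnrnpk, against 8.41, 9.40 and 8.47 with siControl (1.45 ± 0.22, adjusted p = 0.000381, limma). In hnRNPKKD Elovl5 thus rose with siP53, siLincp21 and siHnrnpk against the same siControl arrays, its lowest group. The part of the control level in these rises was not tested. Acss2 read 8.28, 8.39 and 8.22 with siHnrnpk, against 7.79, 7.74 and 7.92 with siControl (0.48 ± 0.10). These genes and Idi1 had every siHnrnpk array above the controls, as 25.2% of all tested genes did. Idi1 read 11.24, 11.07 and 10.94 with siHnrnpk, against 9.83, 10.57 and 9.91 with siControl (0.98 ± 0.17, adjusted p = 0.000856, limma). Hsd17b7 read 8.38, 8.40 and 8.54 with siHnrnpk, against 9.39, 9.49 and 9.37 with siControl (-0.98 ± 0.11, adjusted p = 4.07e-05, limma), and its other probe sets above the limit differed by -0.50 and -0.46. Stard4 read 8.17, 7.98 and 8.16 with siHnrnpk, against 8.79, 8.88 and 8.67 with siControl (-0.68 ± 0.14), with other probe sets at -0.14 and -0.49. Both genes had every siHnrnpk array below the controls, as 24.2% of all tested genes did. Elovl6 did not pass (0.33 ± 0.13). Sc5d differed by -0.22 ± 0.13 on the probe set used and by -1.62 on another.

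Mitotic genes fell in the siHnrnpk comparison too, 11 of 20 (median -0.46, summed signal 10800 to 11200 with siHnrnpk and 14200 to 17300 with siControl), as did Krt18 (-2.91 ± 0.13, epithelial sum 186 to 208 with siHnrnpk). Adipocyte sums were 799 to 845 with siHnrnpk and 1060 to 1100 with siControl, and the part of these lists was not tested. Genes of lipid transport and storage gave 9 rises and 4 falls of 22, with Osbpl5 (1.81 ± 0.11) among the rises and the oxysterol-binding protein gene Osbp (-0.91 ± 0.12) and Mylip (-0.96 ± 0.12) among the falls. Around SREBP control 5 of 24 rose and 3 fell, against 14.1% and 12.8% of all tested genes. The SREBP protease Mbtps2 (0.58 ± 0.12) and the NF-Y subunit Nfyb (0.42 ± 0.09) were among the rises. Among the falls were another SREBP protease, Mbtps1 (-0.35 ± 0.09), and another NF-Y subunit, Nfyc (-0.56 ± 0.15).

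Set directly against siP53, siLincp21 and siHnrnpk cells had lower levels of most lipid synthesis transcripts. With siLincp21 25 of 32 members were lower than with siP53 and 2 higher in lincP21KD, against 9.22% and 11.2% of all genes, and 25 lower and 2 higher in hnRNPKKD, against 17.5% and 21.3%. With siHnrnpk 20 members were lower and 3 higher than with siP53, against 22.5% and 22.9% of all genes. The difference of siLincp21 minus siP53 in hnRNPKKD was -3.13 ± 0.13 for Elovl6, -2.74 ± 0.14 for Stard4 and 1.17 ± 0.09 for Scap. In lincP21KD it was -1.41 ± 0.14 for Elovl6, -1.12 ± 0.14 for Stard4 and 0.68 ± 0.08 for Scap. Each of these differences contains the siP53 change given above. The siRNA comparisons of an experiment share arrays, so their values stand side by side here and no count of genes shared between them is given.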

How the data were processed

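Affymetrix arrays measured total RNA, and the authors deposited log2 signals that they computed with RMA, per the submitters' processing notes (version not given in the sources used here). Of 45101 probe sets, 34958 had 1 gene symbol, 932 several and 9211 none, and 34754 symbols were updated by gene ID (GRCm38.p6). The lowest 40% of probe sets by mean (log2 below 4.544) were left out. Each experiment had its own linear model (limma 3.58.1, R 4.3.3, eBayes at its default options) on the values as given, and the time course had the time point as a block. Differences between experiments are contrasts in a joint fit, each with its own controls. Array medians ranged from 4.976 to 5.032 in the time course, from 5.546 to 5.656 in lincP21KD and from 4.832 to 4.914 in hnRNPKKD. The number of arrays limits the precision.

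The members, lists and comparisons were chosen with earlier results of these data known, so branches carry counts and medians and no test. Values per array are given for up to 6 called members with the smallest adjusted p in each comparison. At most 4 genes of any other list are named per comparison, except for lipid transport and storage in hnRNPKKD. Values beyond these were chosen after they were seen. The further lists held other sterol genes, lipid transport and storage, other fatty acid genes, fatty acid oxidation, SREBP control, mitosis, and markers of fibroblasts, adipocytes, macrophages, endothelium, epithelium and hepatocytes. Promoter orientation was checked on 1668 overlapping entries of opposite strand, and all 1668 matched as reverse complements. The fits were tested on simulated data.

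Deviations from group means correlated between arrays of the same replicate number at 0.216, 0.166 and 0.209 for siHnrnpk and siControl, so these numbers count as pairs; the labels do not state a pairing. No other pair of groups had all correlations over 0.1, and their numbers were not counted as pairs. Single correlations were higher, at 0.631 and 0.694 for replicates 2 and 3 of siP53 and siLincp21 in hnRNPKKD (replicate 1 at -0.0328). A pairing of those groups is therefore not excluded. Alternatives covered the filter, the scaling, the choice of probe set, the eBayes options, blocks and leaving out arrays. An experiment with RAS and the transcripts of p53 and lincRNA-p21 were not analysed here.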

Additional observations from a re-analysis of the deposited data

Results flagged for a closer look

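Among 36 sets of 5 pair differences examined for 1 value far from the rest, 2 stood out, and chance gives about 1 in 20. Mvd, the mevalonate diphosphate decarboxylase, differed by -1.35 between AdenoCre and AdenoGFP at 9 h, while its other 4 pairs lay between -0.33 and 0.01. The median of the fatty acid branch was -0.69 at 9 h, while its other times lay between -0.42 and -0.32.

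The siP53 difference was not the same in the 2 siRNA experiments for 3 members, by a test of the difference (hnRNPKKD minus lincP21KD, limma, with 7.14% of all tested genes higher and 7.35% lower). It was larger in the hnRNPKKD experiment by 1.37 for Elovl5 (adjusted p = 0.0034) and by 0.68 for Scd2 (adjusted p = 0.00847). For Tm7sf2 it was lower by that test, at -0.68 (adjusted p = 0.0382), and the 2 differences were -0.10 in the hnRNPKKD and 0.57 in the lincP21KD experiment. By that test the members were called no more often than all tested genes.

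The siLincp21 difference was not the same for 5 members, with 4.63% of all tested genes higher and 3.51% lower (limma). The difference between experiments was -1.22 for Elovl6 (adjusted p = 0.00198), -1.15 for Stard4 (adjusted p = 0.00377), -0.79 for Tm7sf2 (adjusted p = 0.0266), -0.77 for Nsdhl (adjusted p = 0.0217) and 0.45 for Scap (adjusted p = 0.0381). Elovl6, Stard4 and, with siP53, Elovl5 kept this call in every alternative run. Mitotic genes differed between the experiments in the same contrasts, with 12 of 20 higher for siP53 and 15 of 20 lower for siLincp21, and their part in these differences was not tested.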

How the results depend on the processing

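No called member changed direction under any alternative: 2105 comparisons of a member with its main value kept the call and 247 kept the direction without it. Leaving out single arrays or time pairs gave 15 to 18 called members between the viruses, 0 to 6 slopes in AdenoCre, 4 to 17 members with siP53 and 0 to 7 with siLincp21 in lincP21KD, 17 to 22 with siP53, 15 to 17 with siLincp21 and 6 to 9 with siHnrnpk in hnRNPKKD, and 2 to 11 (siP53, highest without hnRNPKKD siP53 replicate 2) and 2 to 4 (siLincp21) between experiments. In hnRNPKKD the sterol median then ranged from 0.48 to 0.71 with siP53, from -0.71 to -0.48 with siLincp21 and from -0.16 to 0.04 with siHnrnpk (0.04 without siControl replicate 2), and the fatty acid median from 0.19 to 0.39 with siHnrnpk. In lincP21KD the fatty acid median with siLincp21 ranged from 0.07 to 0.11. With log2(hours + 1), 1 slope in AdenoCre was called. With the mean of a gene's probe sets, 4 members were called with siLincp21 in lincP21KD and 10 with siHnrnpk (5 in each direction), the sterol median with siP53 in hnRNPKKD was 0.41 and the fatty acid median with siHnrnpk 0.23. With the regulators and Stard4 joined to the branches, the sterol median with siLincp21 in hnRNPKKD was -0.50. The cause of these shifts was not tested.

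The replicate block gave 14 members (1 higher, 13 lower) with siLincp21 in lincP21KD and 5 for the siP53 difference between experiments. In these comparisons the replicate numbers were not counted as pairs. It gave 8 with siHnrnpk, where they were counted as pairs, adding Tm7sf2 and Srebf2. Over all genes, counts moved from 2427 to as low as 1146 between the viruses (1304 without the time block), from 684 to 204 for slopes in AdenoCre, from 1 to 0 or 2 for slopes in AdenoGFP and from 23 to between 0 and 41 for the slope difference. Leaving out single arrays took them from 1615 to 620 and from 1503 to 286 with siP53 and siLincp21 in lincP21KD, from 2590 to 1627 between these 2 siRNAs, from 1837 to between 936 and 4351 for the siP53 difference between experiments and from 1032 to 388 for the siLincp21 difference.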
